A study of Mus musculus with 12 samples.

Results

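Erythropoietin (Epo) and 9 genes of the oxygen-sensing pathway were followed in whole kidneys of mice with and without polycystic disease. The 10 genes, taken by name from a count table of 54532 genes, were Epo, the transcription factor subunits Hif1a and Epas1, the prolyl hydroxylases Egln1 and Egln3, and the hypoxia target genes Vegfa, Car9, Ankrd37, Bnip3 and Pdk1. The set was chosen by the level of Epo in these same mice, which stood among the largest falls from noncystic to cystic kidneys with unaltered Pkd2. That comparison is therefore given below as a description with no test.

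RNA-seq had been run on 12 mice, 18 days old, on a C57BL/6 background, in 4 groups of 3. The noncystic mice carried the hypomorphic RC allele of Pkd1 over an intact floxed allele, with no Cre (Pkd1 RC/+ in the study's notation), and were either Pkd2 +/+ or Pkd2 Δ17/Δ17. The cystic mice (Pkd1 RC/-) carried the same 2 Pkd1 alleles plus Ksp-Cre, a recombinase driven by a promoter of kidney tubule epithelium, and were likewise Pkd2 +/+ or Pkd2 Δ17/Δ17. Δ17 stands for removal of the binding motif of the microRNA miR-17 from the Pkd2 3′-UTR by CRISPR, in every cell of the animal. All 12 mice carried the RC allele, no group was wild type for Pkd1, and the presence of Cre and the cystic state cannot be told apart. Mice are named by the numbers of their labels. The noncystic mice were 19, 20 and 21 with intact Pkd2 and 22, 23 and 24 with the deletion, and the cystic mice were 25, 26 and 27 with intact Pkd2 and 28, 29 and 30 with the deletion.

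Cells sense oxygen through prolyl hydroxylases, which use oxygen to mark the α subunits of the hypoxia-inducible factors (HIF) for destruction. When oxygen is short the α subunits escape, pair with a β subunit and switch on genes for glucose use, vessel growth, pH control and red cell production. HIF-α is controlled largely at the protein level, so the mRNA of Hif1a or Epas1 is not a readout of HIF activity. In the kidney Epo is made by interstitial fibroblast-like cells of the cortex and outer medulla, mainly under HIF-2α, the product of Epas1, and acts on red cell precursors in the marrow.

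Libraries held 18800307 to 24453033 reads counted on genes. Levels are given as CPM, the read count scaled to a common library size with TMM factors, which also correct for composition. In mice 27 and 30 the summed CPM of the adrenal markers Cyp11a1, Cyp11b1 and Star was 35.3 and 240, against 3.69 to 7.09 in the other 10 mice. Results between cystic and noncystic kidneys are therefore also given without those mice. The Y-linked and X-inactivation transcripts put 3 of the 6 noncystic and 3 of the 6 cystic mice in each sex class, with both classes in every group. By these transcripts mice 19, 22, 23, 25, 26 and 28 were female, and mice 20, 21, 24, 27, 29 and 30 male. Each pair of groups compared below differed in its sex make-up, so sex is in part confounded with each comparison.

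HIF binds the core words ACGTG and GCGTG. To show where these words stand near the start of each gene, RefSeq promoters of build GRCm38.p6 (250 bases before to 50 after the annotated start) were searched for both words on either strand. Promoters were found for 9 of the 10 genes. At least 1 match was present in 9 of their 11 promoters, and in all 9 genes, while 43.8% of 32851 promoters held one. Matches to ACGTG alone were present in 7 of the 11 promoters (63.6%), in 7 of the 9 genes, and in 19.6% of all promoters. Windows of 25 bases are shown 5′ to 3′ on the gene's strand with the word in capitals, where CACGT and CACGC are ACGTG and GCGTG read on the other strand.
Bnip3: cacgcgccgcACGTGccacacgctc
Ankrd37: gtgtttgggtACGTGaggccgcagc
Egln3: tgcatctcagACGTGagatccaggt
Egln1: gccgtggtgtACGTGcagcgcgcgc
Hif1a: gctgagagcaACGTGggctggggtg
Car9: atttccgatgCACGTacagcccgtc
Vegfa: agtgcgtgccCACGTcagagagcaa
Pdk1: gcctacggggGCGTGgttccagcga
Epo: aagacttgcaGCGTGgacactggcc
The Bnip3 window lies at chr7:138909599-138909623 on the reverse strand, its word starting at -107 from the annotated start. The windows of Ankrd37 (chr8:45999842-45999866, reverse strand, word at -6), Car9 (chr4:43506998-43507022, forward strand, word at -18) and Pdk1 (chr2:71873212-71873236, forward strand, word at -2) sit at or next to the start itself. The other windows are chr12:54204089-54204113 for Egln3, chr8:124949308-124949332 for Egln1, chr17:46025360-46025384 for Vegfa and chr5:137485788-137485812 for Epo, all on the reverse strand, and chr12:73907787-73907811 for Hif1a on the forward strand. The word in the Epo window starts at position 15, where the annotated start is position 1. A match is a run of letters, not a measured binding site, and matches stood both at members that fell in the test below (Bnip3, Car9, Vegfa, Pdk1 and Epo) and at members that did not pass it.

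Epo, the hormone gene, was close to the limit of detection in cystic kidneys and clearly present in most noncystic ones. Noncystic Pkd2 +/+ mice 19, 20 and 21 had 83, 102 and 168 Epo reads, or 4.31, 5.82 and 8.55 CPM. Noncystic Pkd2 Δ17/Δ17 mice 22, 23 and 24 had 11, 71 and 127 reads, or 0.599, 3.87 and 6.99 CPM. Mouse 22 stood well below the other 5 noncystic mice.

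Cystic Pkd2 +/+ mice 25, 26 and 27 had 6, 0 and 1 Epo reads, or 0.232, 0 and 0.0471 CPM. Pooled, 7 reads in 3 mice amount to 0.104 CPM, with an exact 95% Poisson interval of 0.0417 to 0.214 that covers counting error only. Cystic Pkd2 Δ17/Δ17 mice 28, 29 and 30 had 19, 17 and 5 reads, or 0.913, 0.831 and 0.24 CPM. Their 41 pooled reads amount to 0.661 CPM (0.474 to 0.897). All 3 lay above all 3 cystic Pkd2 +/+ mice, though mouse 30 exceeded mouse 25 only narrowly.

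Between Pkd2 +/+ groups, where Epo was chosen, mean Epo was 6.22 ± 2.15 CPM (SD, n = 3) in noncystic and 0.0931 ± 0.123 CPM (SD, n = 3) in cystic kidneys. The cystic mean was 1.5% of the noncystic mean, a log2 fold change of -5.84 (standard error 0.84). Without mouse 25 it was -7.68, without any other of the 6 mice -6.05 to -5.34, and in limma-trend -4.67. In whole kidney, fewer Epo-producing cells and less Epo RNA per cell cannot be told apart.

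Between Pkd2 Δ17/Δ17 groups, none of whose mice entered the comparison that chose Epo, Epo fell in cystic kidneys as well. The mean was 3.82 ± 3.19 CPM (SD, n = 3) in noncystic and 0.662 ± 0.367 CPM (SD, n = 3) in cystic kidneys, or 17.3%. The log2 fold change was -2.52 (standard error 0.66, 95% interval -3.92 to -1.12), with an adjusted p of 0.0101 by edgeR's quasi-likelihood test over 24642 genes. The groups overlapped, because noncystic mouse 22 lay below cystic mice 28 and 29. Without mouse 24, the noncystic mouse with the most Epo, the log2 fold change was -1.75 and the adjusted p 0.0865. Without mice 27 and 30 it was -2.12 with an adjusted p of 0.0585, and with Xist as a covariate for sex it was -2.55 with an adjusted p of 0.00969.

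The Epo annotation (ENSMUSG00000029711) spans chromosome 5 from 137483020 to 137533242 on the reverse strand in GRCm38. That span overlaps 7 other genes, and its exons share bases with exons of Gnb2 on the same strand, so its count can include or miss reads there.

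Cells that make Epo are marked by Pdgfrb, a growth factor receptor of fibroblasts and mural cells, and by Nt5e, a surface enzyme of cortical fibroblasts. In Pkd2 Δ17/Δ17 mice Pdgfrb stood at 105 ± 7.36 CPM (SD, n = 3) in noncystic and 112 ± 9.86 CPM in cystic kidneys (log2 fold change 0.09, adjusted p 0.593 by edgeR). Nt5e fell from 42.7 ± 5.21 to 26.5 ± 1.66 CPM (-0.69, adjusted p 0.000354). Over all 7 interstitial fibroblast markers, 4 rose (Dcn, Col1a1, Col3a1 and Tcf21), Nt5e fell and 2 did not pass. Pdgfra, which did not pass, lay wholly lower in cystic kidneys (145 ± 18.7 against 120 ± 9.28 CPM). The summed level of the 7 ran from 1320 to 1610 CPM in noncystic and from 2120 to 2760 CPM in cystic Pkd2 Δ17/Δ17 kidneys. Most of that rise lay in the matrix genes Col1a1 (mean 254 to 528 CPM) and Col3a1 (636 to 1278 CPM), so the sum is not a measure of Epo-making cells. None of the 7 was at 0. The part of these cells in the Epo result was not tested.

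**Figure D1:**
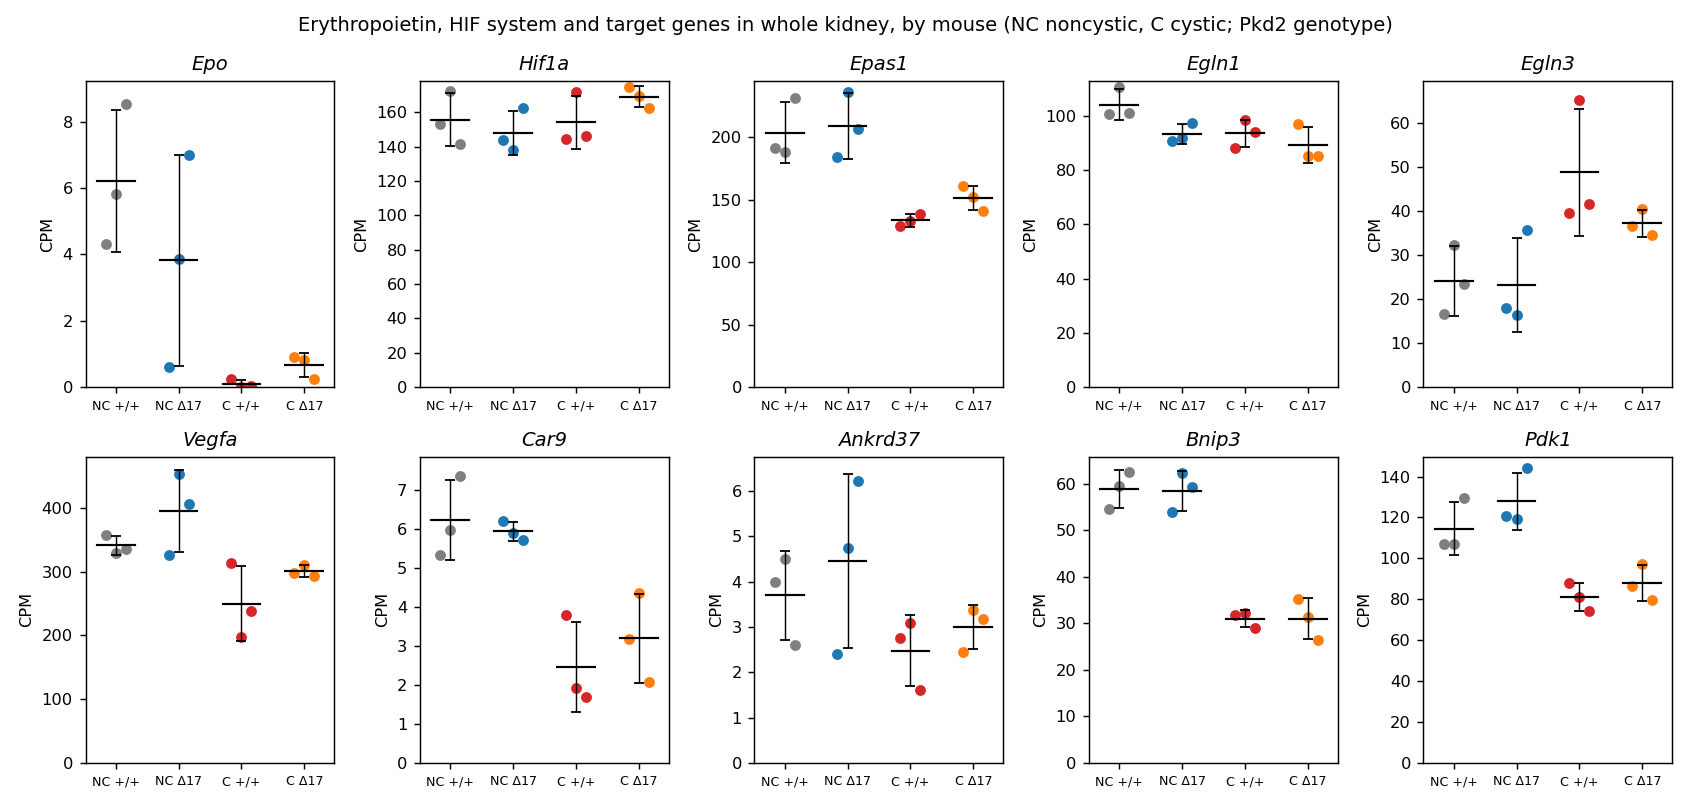
Level in CPM of each of the 10 genes (1 panel each, y axis from 0) in each mouse, by group on the x axis (NC noncystic, C cystic, with the Pkd2 genotype; Δ17 stands for Δ17/Δ17). Points are mice, horizontal bars are means and error bars are SD of 3 mice. Hif1a and Egln3 aside, each gene has a lower mean in both cystic groups (for Egln1 the sign turns with library totals), Egln3 has higher means, and Hif1a lies between 138 and 175 CPM in every mouse.

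The HIF subunits took different courses. Hif1a encodes HIF-1α, which most cell types use. Hif1a ran from 142 to 172 CPM in mice 19 to 21, 138 to 162 in mice 22 to 24, 144 to 172 in mice 25 to 27 and 163 to 175 in mice 28 to 30. The Pkd2 +/+ ranges overlapped, and their log2 fold change was -0.01 (standard error 0.09, description). In Pkd2 Δ17/Δ17 mice the 3 cystic values lay just above the 3 noncystic ones, and the log2 fold change of 0.19 (standard error 0.09) did not pass (adjusted p 0.168 by edgeR). With library totals in place of TMM factors, which raised the median gene by 0.15 log2 units in cystic kidneys, it was 0.34 with an adjusted p of 0.00736, so the outcome for Hif1a depends on the scaling.

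Epas1, the HIF-2α gene, was lower in both cystic groups. Mice 19, 20 and 21 had 191, 188 and 232 CPM, and mice 22, 23 and 24 had 184, 236 and 206 CPM. Cystic mice 25, 26 and 27 had 129, 133 and 139 CPM, and mice 28, 29 and 30 had 161, 152 and 141 CPM. No cystic mouse reached the lowest noncystic one. In Pkd2 Δ17/Δ17 mice Epas1 fell by 0.47 on the log2 scale (standard error 0.10, adjusted p 0.00233 by edgeR), to 72.4% of the noncystic mean. In Pkd2 +/+ mice the log2 fold change was -0.61 (standard error 0.10, description).

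Of the oxygen sensors, Egln1 (PHD2) is the main hydroxylase of HIF-α in most cells. Its mean was 104 ± 5.62 CPM in mice 19 to 21, 93.2 ± 3.59 in mice 22 to 24, 93.5 ± 5.05 in mice 25 to 27 and 89.2 ± 6.76 in mice 28 to 30 (SD, n = 3 each). The cystic-to-noncystic log2 fold change in Pkd2 Δ17/Δ17 mice was -0.06 (95% interval -0.22 to 0.10, adjusted p 0.627 by edgeR), and its sign turned with library totals (0.09).

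Egln3 (PHD3), a hydroxylase whose gene is itself a HIF target, was the one member with higher values in cystic kidneys of Pkd2 +/+ mice. Mice 19, 20 and 21 had 16.6, 32.3 and 23.5 CPM, and cystic mice 25, 26 and 27 had 39.4, 65.2 and 41.4 CPM. All 3 cystic values lay above the noncystic ones, and the log2 fold change was 1.01 (standard error 0.27, description). With the motif deleted, noncystic mice 22, 23 and 24 had 17.9, 16.4 and 35.5 CPM, and cystic mice 28, 29 and 30 had 36.5, 40.4 and 34.5 CPM. Mouse 24 lay within the cystic range, and the log2 fold change of 0.68 (standard error 0.27) did not pass (adjusted p 0.084 by edgeR). Without mouse 24 it was 1.12 with an adjusted p of 0.00384, and with library totals 0.83 with an adjusted p of 0.0263.

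Of the 5 target genes 4 fell, Ankrd37 being the one that did not pass. Bnip3, which encodes a mitochondrial protein of mitophagy and cell death, stood at about the same low level in both cystic groups. Mice 19, 20 and 21 had 54.5, 59.4 and 62.6 CPM, and mice 22, 23 and 24 had 53.8, 62.2 and 59.2 CPM. Cystic mice 25, 26 and 27 had 31.8, 32.3 and 29 CPM, and mice 28, 29 and 30 had 35.2, 31.2 and 26.5 CPM. The lowest noncystic mouse stood far above the highest cystic one. With the motif deleted, Bnip3 fell by 0.92 on the log2 scale (standard error 0.10, adjusted p 8.74e-06 by edgeR), to 53% of the noncystic mean. In Pkd2 +/+ mice the log2 fold change was -0.92 (standard error 0.10, description).

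Pdk1, the kinase that shuts pyruvate out of the mitochondrial cycle, was also lower. Noncystic values were 107, 107 and 129.5 CPM in mice 19, 20 and 21 and 121, 119 and 144 CPM in mice 22, 23 and 24. Cystic values were 88.2, 81 and 74.3 CPM in mice 25, 26 and 27 and 86.4, 97.4 and 79.7 CPM in mice 28, 29 and 30. The ranges did not overlap within either Pkd2 genotype. Pdk1 fell by 0.54 on the log2 scale in Pkd2 Δ17/Δ17 mice (standard error 0.10, adjusted p 0.000869 by edgeR), beside a log2 fold change of -0.50 in Pkd2 +/+ mice (description).

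Car9, a membrane carbonic anhydrase that acidifies the space around hypoxic cells, had few reads, 36 to 145 per mouse. Noncystic values were 5.35, 5.99 and 7.38 CPM in mice 19, 20 and 21 and 6.21, 5.89 and 5.72 CPM in mice 22, 23 and 24. Cystic values were 3.79, 1.91 and 1.70 CPM in mice 25, 26 and 27 and 3.17, 4.35 and 2.07 CPM in mice 28, 29 and 30. Every cystic value lay below every noncystic value. Car9 fell by 0.89 on the log2 scale in Pkd2 Δ17/Δ17 mice (standard error 0.29, adjusted p 0.0346 by edgeR). The call was lost when mouse 22, 23, 24, 28 or 30 was left out (adjusted p 0.0796, 0.0654, 0.068, 0.0815 and 0.149). Without mice 27 and 30 the log2 fold change was -0.66 with an adjusted p of 0.123.

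Vegfa, the main growth factor of blood vessels, was the most abundant member. Noncystic mice 19, 20 and 21 had 358, 330.2 and 336 CPM, and mice 22, 23 and 24 had 327, 453 and 407 CPM. Cystic mice 25, 26 and 27 had 313, 198 and 239 CPM, and mice 28, 29 and 30 had 298, 311 and 293 CPM. The ranges did not overlap within either genotype, but mouse 22 stood close above mouse 29. Vegfa fell by 0.40 on the log2 scale in Pkd2 Δ17/Δ17 mice (standard error 0.14), with an adjusted p of 0.0469 by edgeR that lies at the threshold. The call was lost when mouse 23, 24, 28, 29 or 30 was left out (adjusted p 0.163, 0.122, 0.105, 0.0839 and 0.122). With library totals the adjusted p was 0.231, and without mice 27 and 30 it was 0.143.

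Ankrd37, a small ankyrin-repeat gene that HIF-1 induces in many cell types, was the other low-count member, with 34 to 113 reads. Its level ran from 2.59 to 4.51 CPM in mice 19 to 21, 2.40 to 6.22 in mice 22 to 24, 1.60 to 3.08 in mice 25 to 27 and 2.45 to 3.38 in mice 28 to 30. The ranges overlapped in both genotypes. The log2 fold change in Pkd2 Δ17/Δ17 mice was -0.57 (95% interval -1.25 to 0.12, adjusted p 0.243 by edgeR), and without mouse 22 it was -0.88 with an adjusted p of 0.0483. Its exons share bases with exons of Ufsp2 and Lrp2bp on the opposite strand, and the strand setting of the counting was not stated, so reads of these genes cannot be told apart. The same holds for Car9 with Gm12454, Bnip3 with Gm45507 and Hif1a with Gm15283, all on the opposite strand, and Hif1a also shares exon bases with Gm49321 on its own strand.

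In all, 6 of the 10 members fell and 0 rose between cystic and noncystic Pkd2 Δ17/Δ17 kidneys (Epo, Epas1, Vegfa, Car9, Bnip3 and Pdk1), at an adjusted p under 0.05 by edgeR. Of all 24642 genes tested, 23% passed in this comparison, 10.2% lower and 12.8% higher. The members were chosen with earlier results of these data known, so their count beside these shares is a description. At an unadjusted p under 0.05, 7 members passed, beside 32.8% of all genes, Egln3 being the only one with a higher level. The median log2 fold change of the members was -0.51, beside -0.0032 for all genes tested. The values of 6 members did not overlap between the groups, 5 of them lower and 1 (Hif1a) higher, beside 37.9% of all genes (17.7% lower and 20.2% higher). DESeq2 called 6 members lower and 0 higher, beside 15.9% lower and 16.8% higher of the 18378 genes to which it gave an adjusted p. With library totals edgeR called 4 lower and 2 (Hif1a and Egln3) higher, beside 6.72% of all genes lower and 21.6% higher. In limma-trend 3 were lower and 2 higher, beside 6.89% and 22.1% of all genes. Without mice 27 and 30, 3 members passed, Epas1, Bnip3 and Pdk1, all lower, beside 7.32% lower and 9.66% higher of the 24533 genes kept there.

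In Pkd2 +/+ mice, given as a description, 9 of the 10 members had a log2 fold change below 0, the median was -0.54, and 7 lay wholly lower and 1 wholly higher in cystic kidneys, beside 41.7% of all genes whose groups did not overlap (19.7% lower and 22% higher).

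**Figure D2:**
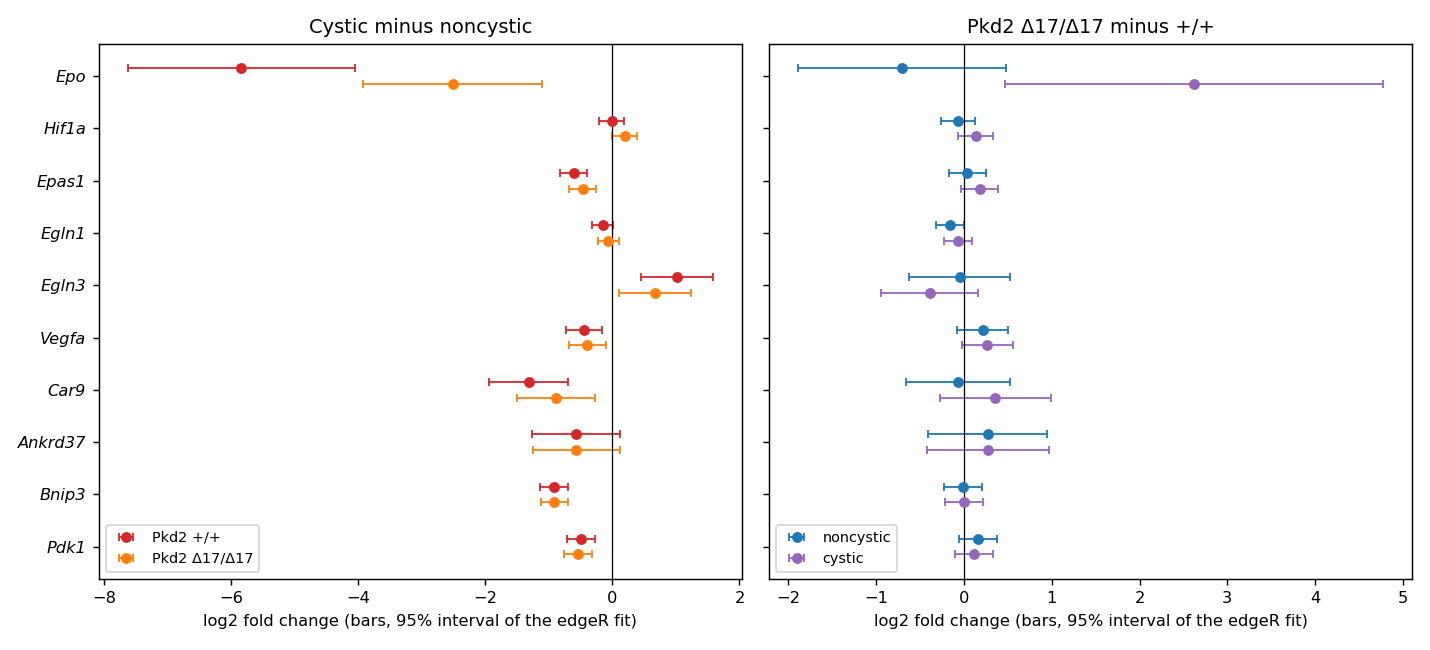
Log2 fold change of each gene (points) with the 95% interval of the edgeR fit (bars), for cystic minus noncystic kidneys with either Pkd2 genotype (left) and for Pkd2 Δ17/Δ17 minus +/+ in noncystic and cystic kidneys (right). The left Pkd2 +/+ values are a description. On the left Epo lies farthest below 0 (-5.84 and -2.52), and on the right cystic Epo (2.62) lies farthest from 0.

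The Δ17 groups allow a comparison of expression with and without the miR-17 motif of Pkd2, in cystic and in noncystic kidneys. In the study, cystic Pkd2 Δ17/Δ17 mice had lower kidney weight per body weight and lower serum creatinine than cystic Pkd2 +/+ mice. In cystic kidneys an effect of the motif itself and of milder disease therefore cannot be told apart. The cystic Pkd2 +/+ mice enter both the cystic deletion comparison and the one that chose Epo. A low value in them moves both, so the Epo difference, its interval and its p are not independent of that choice. In cystic kidneys the mean Epo level was 7.11 times as high with the motif deleted. The log2 fold change was 2.62 (standard error 1.02, 95% interval 0.47 to 4.78), with a p of 0.0202 and an adjusted p of 0.229 in the edgeR fit, so it did not pass. Without mouse 25, the cystic Pkd2 +/+ mouse with the most Epo reads, it was 4.46, and without any other cystic mouse it ran from 2.12 to 3.02. In noncystic kidneys, which share the noncystic Pkd2 +/+ mice with that choice, the log2 fold change of Epo was -0.70 (standard error 0.56, adjusted p 0.83 by edgeR). The interaction, the difference between both deletion effects, was 3.33 log2 units for Epo (standard error 1.16), and 5.16 without mouse 25. It contains the Pkd2 +/+ difference by which Epo was chosen and is a description with no test.

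In cystic kidneys 0 of the 10 members passed for the deletion by edgeR, beside 2.23% of all genes. No member other than Epo had an unadjusted p under 0.05, beside 14.3% of all genes, and the Epo p is not independent of its choice. DESeq2 and limma-trend called 0 members. With no cutoff on low counts edgeR called 2, Egln3 (adjusted p 0.00998) and Epo, beside 4.94% of the 33191 genes kept there. The Epo call there rests on the mice by which it was chosen. That fit gave far smaller p-values at like fold changes. For Gata3, a pathway gene named below, the adjusted p by edgeR was 2.37e-08 there and 0.0323 in the main fit, with a log2 fold change of -0.61 in both. Its calls are therefore not relied on. Without mouse 25, edgeR called 1 member, Vegfa (log2 fold change 0.46, adjusted p 0.0411), beside 3.46% of the 24878 genes kept there. Epo and Epas1 did not overlap between the cystic groups, beside 19% of all genes (8.79% higher), and both were higher with the deletion. Epas1 stood at 134 ± 5.05 CPM without and 151 ± 9.80 CPM with the deletion (SD, n = 3 each; log2 fold change 0.18, adjusted p 0.449 by edgeR). For Bnip3 the log2 fold change of the deletion was -0.002 with a 95% interval of -0.22 to 0.22, and for Pdk1 it was 0.11 with an interval of -0.11 to 0.33.

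In noncystic kidneys 0 of 10 members passed by edgeR, DESeq2 or limma-trend, beside 0.00406% of all genes, and 0 had an unadjusted p under 0.05, beside 6.31% of all genes. Egln1 did not overlap between the noncystic groups, being lower with the deletion (log2 fold change -0.16, adjusted p 0.771 by edgeR), beside 10.8% of all genes (5.09% lower). For the interaction, Epo is left out because its choice used part of this contrast. Of the other members 0 passed by edgeR, DESeq2 or limma-trend, beside 0.0122% of all genes. None of them had an unadjusted p under 0.05, beside 8.33% of all genes.

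To set the members against each other, CPM was divided by the annotated exon length in kilobases (RPKM). In noncystic Pkd2 +/+ kidneys the order of RPKM levels was Vegfa (79.7), Epas1 (36.4), Egln1 (29), Hif1a (26.4), Bnip3 (26), Pdk1 (14.7), Egln3 (9.06), Epo (7.28), Car9 (2.71) and Ankrd37 (2.40). Values of neighbouring genes overlapped for Egln1 and Hif1a, Hif1a and Bnip3, Egln3 and Epo, and Car9 and Ankrd37. In cystic Pkd2 +/+ kidneys Vegfa (58.4) was still first, followed by Hif1a (26.1), Egln1 (26) and Epas1 (23.9), whose neighbouring values overlapped. Egln3 (18.3) stood above Bnip3 (13.7), and Epo (0.109) came last, below Car9 (1.07), without overlap. In cystic Pkd2 Δ17/Δ17 kidneys Epo (0.774) was also last, but its values overlapped those of Car9 (1.39).

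Spread between mice of a group differed among members. The coefficient of variation of CPM was 34.5 and 83.6% for Epo in the noncystic Pkd2 +/+ and Δ17/Δ17 groups and 132 and 55.5% in the cystic ones. For Egln1 it was 3.85 to 7.58% over the 4 groups.

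The genes whose pattern over the 12 mice was closest to that of Epo were found by the root mean square difference of centred log2CPM. They were Egf (1.09), H1f4 (1.13), Gdf5 (1.15), Inmt (1.16) and Uroc1 (1.19), where a gene with no change at all would score 2.16. Egf, the growth factor gene of the distal nephron, stood at 1751 and 2182 CPM in noncystic and 209 and 456 CPM in cystic kidneys (Pkd2 +/+ and Δ17/Δ17). Among the members Car9 (1.60) and Bnip3 (1.77) were nearest to Epo. The list is a description, and with a prior count of 0.5 only 2 of its 5 genes remained.

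The pathway was then read through 79 further genes in 8 lists, of which 59 in 6 lists were HIF target genes. These lists too were chosen with earlier results of these data known, so their counts are a description. Between cystic and noncystic Pkd2 Δ17/Δ17 kidneys 9 of the 79 rose and 16 fell by edgeR, or 11.4% and 20.3%, beside 12.8% and 10.2% of all genes. With library totals 18 rose and 11 fell, or 22.8% and 13.9%, beside 21.6% and 6.72% of all genes. Of the 59 HIF targets 5 rose, 14 fell and 40 did not pass, with a median log2 fold change of -0.18. Exons of 28 of the 79 share bases with another gene, in 24 of them on the opposite strand, so their counts carry the same doubt.

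Among 10 genes of HIF subunits and oxygen sensing 1 rose and 1 fell. Arnt2, a β subunit partner, rose from 35 ± 1.19 to 48.9 ± 1.61 CPM (SD, n = 3; log2 fold change 0.48, adjusted p 0.00303 by edgeR). Hif3a, whose product can restrain the other α subunits, fell from 9.16 ± 3.90 to 4.03 ± 1.14 CPM (-1.19, adjusted p 0.00518).

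Among 18 genes of glucose use and glycolysis 1 rose and 3 fell. The one that rose was Slc2a1, the GLUT1 glucose transporter (log2 fold change 0.35, adjusted p 0.0152 by edgeR), though not without mouse 23 (adjusted p 0.107) or mouse 29 (0.0966). Ppp1r3c, a glycogen-targeting subunit of protein phosphatase 1, fell from 15.4 ± 5.86 to 6.28 ± 2.10 CPM (-1.29, adjusted p 0.00549). Gapdh, a glycolytic enzyme, fell from 2013 ± 78.5 to 1564 ± 129 CPM (-0.36, adjusted p 0.00685), and with library totals its adjusted p was 0.0598. Of the 18, 16 had a log2 fold change below 0 and the median was -0.21.

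Among 6 mitochondrial targets 2 fell and 4 did not pass. The 2 were the protease gene Lonp1 (log2 fold change -0.39, adjusted p 0.00176) and Higd1a, a respiratory chain factor (-0.31, adjusted p 0.042). Higd1a lost its call when any of the 6 mice was left out (adjusted p 0.0514 to 0.126). It also lost it with library totals (adjusted p 0.31 by edgeR) and with Xist as a covariate (0.0642).

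Among 8 vessel genes 1 rose and 3 fell. Angptl4, a secreted inhibitor of lipoprotein lipase that both HIF and PPAR factors induce, fell from 169 ± 34.4 to 33.9 ± 8.60 CPM (SD, n = 3; log2 fold change -2.32, adjusted p 2.12e-07 by edgeR), the lowest log2 fold change among the 79 genes. Flt1, a VEGF receptor of endothelium, fell from 75.7 ± 5.32 to 50.3 ± 4.14 CPM (-0.59, adjusted p 5.61e-05). Apln, a vascular peptide hormone gene, rose (0.40, adjusted p 0.0298), though not without mouse 22 (adjusted p 0.111), 23 (0.108) or 28 (0.143). Kdr, the other main VEGF receptor and here an endothelial marker, fell with a log2 fold change of -0.43 (adjusted p 0.00085 by edgeR). The endothelial markers Pecam1 (-0.09, adjusted p 0.594) and Cdh5 (0.03, adjusted p 0.891) did not pass.

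Among 7 genes of pH and iron 1 rose and 2 fell. Car12, a carbonic anhydrase of tubule epithelium, fell from 327 ± 42.1 to 218 ± 32.7 CPM (-0.59, adjusted p 0.00592 by edgeR; 0.0502 without mice 27 and 30). The transferrin receptor gene Tfrc fell by 0.49 on the log2 scale (adjusted p 0.0309), a call lost without mouse 22, 23, 24, 29 or 30 (0.0591 to 0.136). The Tfrc call was also lost with library totals (adjusted p 0.117 by edgeR) and without mice 27 and 30 (0.0811).

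Among 6 genes of collagen modification 2 rose and 4 did not pass. Both encode collagen cross-linking enzymes, Lox (log2 fold change 0.66, adjusted p 0.00646 by edgeR) and Loxl2 (0.37, adjusted p 0.0333). Loxl2 did not pass without mouse 22, 23, 24, 29 or 30 (adjusted p 0.0707 to 0.156). Nor did it pass with Xist as a covariate (adjusted p 0.0615 by edgeR) or without mice 27 and 30 (0.119). The median of the list was -0.15.

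Among 14 genes of signalling and stress 4 fell and 10 did not pass by edgeR. Ak4, a mitochondrial adenylate kinase, fell from 342 ± 32.9 to 132 ± 23.7 CPM (log2 fold change -1.37, adjusted p 1.45e-06). Ndrg1, a stress-induced growth regulator, fell from 1644 ± 56.4 to 811 ± 9.82 CPM (-1.02, adjusted p 3.68e-05).

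Of 10 genes of the Epo receptor pathway and of factors known to act on Epo control regions, 3 rose and 1 fell. Gata2 and Gata3, GATA factors of which Gata2 is known to repress Epo, rose with log2 fold changes of 0.76 (adjusted p 0.000157 by edgeR) and 1.06 (adjusted p 5.24e-05). Hnf4a, a nuclear receptor that binds the Epo enhancer and is expressed in proximal tubule, fell from 583 ± 45.4 to 339 ± 50.5 CPM (-0.78, adjusted p 0.000345).

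For the motif deletion, 2 of the 79 genes (2.53%) passed in cystic kidneys by edgeR, a share near the 2.23% of all genes. Arnt2 was higher with the deletion (36.2 ± 6.03 against 48.9 ± 1.61 CPM, SD, n = 3; log2 fold change 0.43, adjusted p 0.0417). Gata3 was lower (103 ± 12.3 against 67.4 ± 15.4 CPM; -0.61, adjusted p 0.0323). Arnt2 did not pass without mouse 25, 27, 28, 29 or 30 (adjusted p 0.0527 to 0.163), nor Gata3 without mouse 25, 27, 28 or 29 (0.0528 to 0.139). In noncystic kidneys 0 of the 79 passed by edgeR, DESeq2 or limma-trend, and 1 had an unadjusted p under 0.05.

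**Figure D3:**
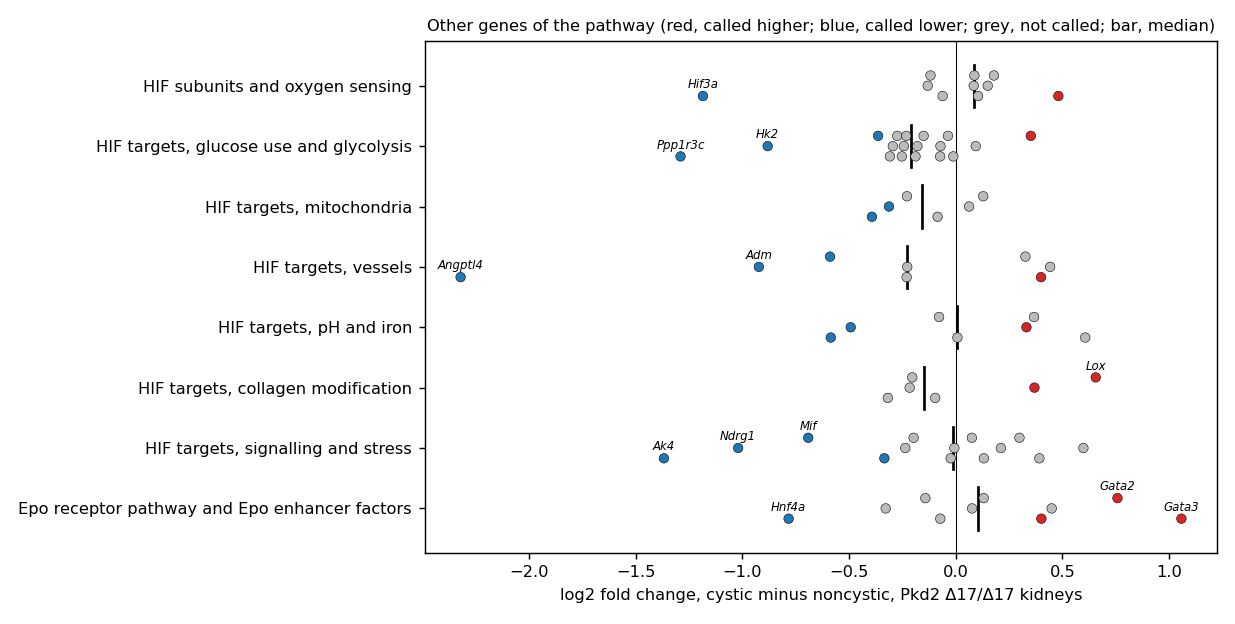
Log2 fold change, cystic minus noncystic Pkd2 Δ17/Δ17 kidneys, of 79 further pathway genes in 8 lists. Each point is a gene, red where it rose and blue where it fell at an adjusted p under 0.05 by edgeR, grey where it did not pass, and the bar is the list's median. Angptl4 (-2.32) lies farthest left and Gata3 (1.06) farthest right.

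Markers of other cell types moved with the cystic state in the same Pkd2 Δ17/Δ17 mice. All 6 proximal tubule markers fell, with a summed level of 7210 to 8070 CPM in noncystic and 2890 to 4160 CPM in cystic kidneys. All 4 podocyte markers fell (492 to 558 against 236 to 311 CPM), as did 3 of 5 endothelial markers (506 to 541 against 378 to 486 CPM) and 2 of 4 markers of thick ascending limb and distal tubule (3390 to 4420 against 3110 to 3270 CPM). Those 2 were Slc12a3 and Pvalb, and the 3 endothelial markers were Kdr, Tek and Emcn, while Pecam1 and Cdh5 did not pass. Slc12a1 and Umod did not pass, Slc12a1 lying wholly lower and Umod wholly higher in cystic kidneys (mean 1038 against 1270 CPM for Umod). All 4 macrophage markers rose (74.6 to 87.9 against 130 to 142 CPM), as did 1 of 4 mural cell markers (294 to 369 against 570 to 620 CPM) and 1 of 4 collecting duct markers (886 to 1240 against 1070 to 1650 CPM). The mural marker was Acta2 (mean 88.1 against 337 CPM), which carried most of the mural sum's rise. Rgs5, Cspg4 and Myh11 did not pass, and Myh11 lay wholly lower in cystic kidneys (45.5 against 33.4 CPM). The collecting duct marker was Scnn1g (mean 67.2 against 140.5 CPM). Aqp2, Aqp3 and Atp6v1b1 did not pass, Aqp3 lying wholly higher in cystic kidneys and Atp6v1b1 having a log2 fold change of -0.19. The part of cell type shares in the falls of Epas1, Vegfa, Car9, Bnip3 and Pdk1 was not tested.

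Erythroid marker transcripts were lower too. Of 8 erythroid markers 7 fell in cystic Pkd2 Δ17/Δ17 kidneys, with a median log2 fold change over the 8 of -1.45, and their summed level ran from 485 to 1120 CPM in noncystic and from 222 to 302 CPM in cystic kidneys. Alas2, the heme synthesis enzyme of red cell precursors, had a log2 fold change of -1.85 (adjusted p 3e-04 by edgeR). Red cells in the tissue carry these transcripts, but whether all reads of the 8 markers came from red cells was not tested. How much blood each kidney held was not measured.

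**Figure D4:**
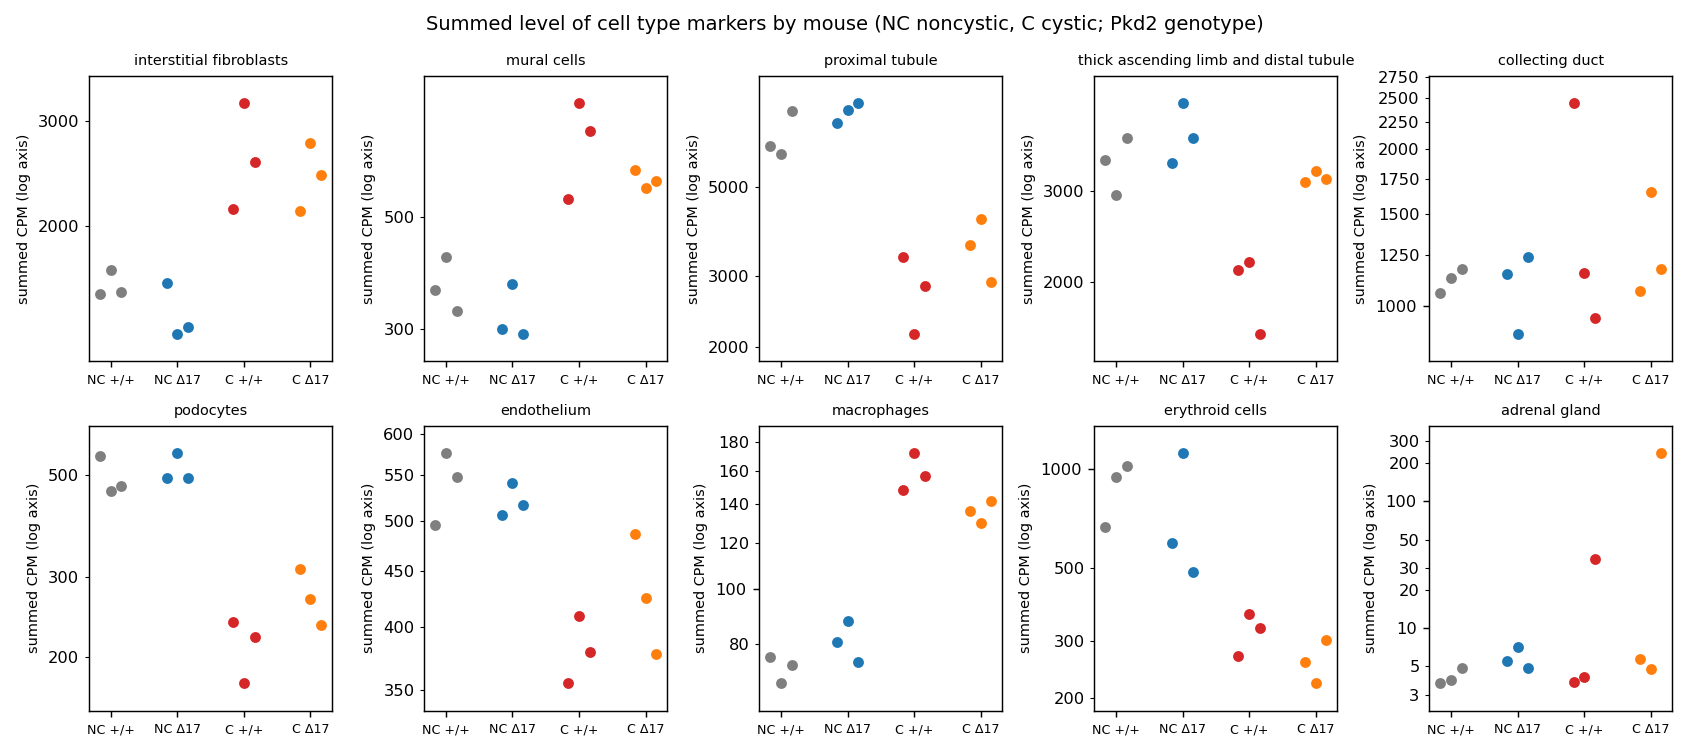
Summed CPM (log axis) of 10 cell type marker lists in each mouse, by group on the x axis (NC noncystic, C cystic, with the Pkd2 genotype). Each point is a mouse. Proximal tubule, podocyte and erythroid sums are lower and macrophage sums higher in cystic kidneys, and the adrenal sum stands apart in mouse 27 (35.3) and mouse 30 (240).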

How the data were processed

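Per the study's methods, reads were trimmed (Trim Galore 0.6.3) and aligned to GRCm38 (STAR 2.5.3a), and the authors deposited raw whole-number counts per gene without normalization. The strand setting of the counting was not stated. The software was edgeR 4.0.16, DESeq2 1.42.0 and limma 3.58.1 under R 4.3.3. A gene was kept where its average log2CPM (prior count 2) reached -3, which left 24642 genes and all 10 members. Counts of all 12 mice entered 1 edgeR quasi-likelihood fit, scaled by TMM, with a mean for each group and 8 residual degrees of freedom. P-values were adjusted over all kept genes by Benjamini and Hochberg's method, with a threshold of 0.05. A gene is said to rise or fall only where it passed.

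The members and the gene lists were chosen with earlier results of these data known. Named genes of a list were the at most 2 rising and 2 falling genes with the smallest p between the Pkd2 Δ17/Δ17 groups, all pathway genes called for the deletion and the 5 genes most like Epo. Alas2 and the single markers of fibroblasts, mural cells, endothelium (Kdr among them), collecting duct, thick ascending limb and distal tubule were named after their values were seen. The gene of the pH and iron list that rose is not reported here by name. Coordinates and exon lengths came from GENCODE M21, which held 54409 of the 54532 identifiers, and promoters from RefSeq. In the table, 343 genes without a name held 0.0225% of the reads. Each sample is labelled as a separate mouse, replicates differed by more than sampling noise (chi-square per degree of freedom 8.88 to 24.3), and between the Pkd2 Δ17/Δ17 groups log2 fold changes of genes whose average log2CPM was 1 or more had a median standard error of 0.112. Alternatives were limma-trend with library totals, DESeq2's Wald test, other scalings and cutoffs, Xist as a covariate, a fit on the compared groups only, a threshold of 0.01 and leaving out each mouse. Leaving out mice 27 and 30 together was chosen after seeing the data.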

Additional observations from a re-analysis of the deposited data

How the results depend on the processing

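No paired analysis was possible because each mouse has a number of its own and the groups share none. Between cystic and noncystic Pkd2 Δ17/Δ17 kidneys, Epas1, Bnip3 and Pdk1 kept their direction and passed in each of 16 alternatives, Vegfa and Car9 only under some. The 6 calls became 3 at an adjusted p under 0.01 and 3 without mice 27 and 30, and 4 to 6 when single mice were left out. Epo ran from -3.04 to -1.75 when single mice were left out, did not pass without mouse 24 (adjusted p 0.0865), without mice 27 and 30 (0.0585) or in limma-trend (0.0529), and was not fitted with at least 10 counts in every mouse. Car9 did not pass in limma-trend (0.0539), with library totals (0.0665), with Xist as a covariate (0.0542), without mouse 22, 23, 24, 28 or 30 (0.0654 to 0.149) or without mice 27 and 30 (0.123). Ankrd37 passed without mouse 22 (-0.88, adjusted p 0.0483). The sign of Egln1 turned, to 0.087 in limma-trend and 0.0888 with library totals.

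For the deletion in cystic kidneys, members called were 2 with no cutoff and 0 to 1 without single mice, and pathway genes called were 5 by DESeq2, 1 with DESeq2 size factors, 14 with no cutoff, 4 with Xist as a covariate, 0 on the compared groups only, 0 at an adjusted p under 0.01, 0 to 4 without single mice and 1 without mice 27 and 30. Bnip3 there turned to 0.00338 with library totals, 0.0028 with at least 10 counts, 0.00296 with filterByExpr, 0.0175 with Xist, 0.0533 without mice 27 and 30, and -0.104 to 0.1 without single mice. With no cutoff the interaction called no member other than Epo, which is not tested there, and the noncystic deletion called 1 pathway gene. Calls of the fit with no cutoff carry the limit given above for its p-values. For the noncystic deletion Bnip3 turned to 0.00201 in limma-trend and 0.00427 with library totals, and Egln3 to 0.0621 with Xist. Without single mice the noncystic ranges were -0.0623 to 0.0332 for Bnip3, -0.492 to 0.206 for Egln3, -0.0647 to 0.137 for Epas1, -0.142 to 5.23e-05 for Hif1a, -0.17 to 0.0658 for Car9 and -0.0477 to 0.557 for Ankrd37. Of the 5 genes most like Epo, 2 remained with a prior count of 0.5 and 3 to 5 without single mice. The cause of these changes was not tested. With 0 to 19 Epo reads per cystic mouse, differences of a few reads are not detectable at this depth.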

Other observations

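The noncystic mice with Xist, the transcript of the inactive X chromosome, under 10 CPM (mice 20, 21 and 24) had more Epo than the other noncystic mice. Their Epo level ran from 5.82 to 8.55 CPM, against 0.599 to 4.31 CPM in mice 19, 22 and 23. Egln3 was split the same way, at 23.5 to 35.5 against 16.4 to 17.9 CPM. These were the 2 members that did not overlap between the mice so divided, both higher, and 8.6% of all genes tested did not overlap. In the cystic mice neither split in this way. Epo ran from 0.0471 to 0.831 CPM in mice with little Xist and from 0 to 0.913 CPM in the others, and Egln3 from 34.5 to 41.4 against 36.5 to 65.2 CPM. There Bnip3 was the 1 member without overlap, lower in mice with little Xist (26.5 to 31.2 against 31.8 to 35.2 CPM), beside 6.9% of all genes. The split was chosen after the values were seen and no test was made of it.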
